A study of Mus musculus with 4 samples.

Results

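The cytosolic ribosomal protein genes encode the protein part of the ribosome, and they were examined here in immune cells sorted from the dura mater of mice with and without VEGF-C overexpression. They were chosen by name, as the genes called *Rpl*, *Rplp*, *Rps*, or *Rpsa* followed by a number and at most a short suffix, without pseudogene names containing -ps and without the S6 kinases. The rule took 85 of the 55401 genes in the deposited table, of which 53 carry names of the large subunit and 32 carry names of the small subunit. The cells were CD45+ leukocytes of C57BL/6J male mice, wild type per the labels, that had received a single intracisternal dose of AAV at 4 wk of age. The AAV-mVEGF-C vector carries the whole mouse VEGF-C coding sequence. The AAV-CTRL vector carries a part of the VEGFR-3 receptor that, per the paper, does not bind VEGF-C, fused to an immunoglobulin tail. Both groups therefore carried an AAV serotype 9 vector with a transgene. Each group had 2 libraries, each made from the pooled meninges of 10 to 12 mice, so that the spread given here is between pools and not between animals. The titles number the libraries by experiment, and that numbering is kept here. The short column names number the controls 2 and 3 and the libraries with VEGF-C 1 and 2, so that which pools were handled together is not settled, and AAV-CTRL 1 shares its column number with AAV-mVEGF-C 2. Where several values follow each other, they are in the order AAV-CTRL 1, AAV-CTRL 2 (the controls), AAV-mVEGF-C 1, AAV-mVEGF-C 2 (with VEGF-C).

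Ribosomal proteins are made in nearly equal amounts, join the ribosomal RNAs in the nucleolus, and leave the nucleus as the small subunit, which decodes the mRNA, and the large subunit, which joins the amino acids. Their mRNAs are among the most abundant of any cell, and many of them begin with a short run of pyrimidines, the terminal oligopyrimidine (TOP) tract, through which mTOR signaling adjusts their translation together. In leukocytes, ribosome content rises when lymphocytes are activated and is low in mature neutrophils.

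Reads assigned to genes totaled 46409700 and 33336071 for the controls, and 38052048 and 32520709 for the libraries with VEGF-C. AAV-CTRL 1 had reads on 20993 genes against 29230 to 37535 in the other libraries. Small nuclear RNAs took 0.237 and 0.414% of the reads in the controls and 1.04 and 0.492% with VEGF-C. *Ptprc*, the gene of CD45, was at 1150, 945, 1086, and 1037 CPM (reads per 1000000, after scaling of the library sizes) in the same order. The sort is thus visible in every library.

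Ribosomal protein genes took a smaller share of the reads in the AAV-mVEGF-C libraries on average, but the group means lay closer together than the AAV-mVEGF-C libraries did to each other. The share was 2.92% in AAV-CTRL 1 (95% Wilson interval, 2.91 to 2.92), 2.60% in AAV-CTRL 2 (2.59 to 2.61), 2.08% in AAV-mVEGF-C 1 (2.07 to 2.08), and 2.57% in AAV-mVEGF-C 2 (2.57 to 2.58). The intervals reflect counting alone, because PCR copies of 1 molecule are not independent. AAV-mVEGF-C 1 was thus the low library, AAV-CTRL 1 the high one, and the other two were close together. The mean was 2.76% ± 0.225 in the controls and 2.33% ± 0.351 with VEGF-C (SD, n = 2 libraries each), which is a difference of -0.433 percentage points. The large subunit genes held 1.79, 1.58, 1.25, and 1.55% of the reads in the order above, and the small subunit genes held 1.12, 1.02, 0.827, and 1.02%. Both subunits therefore ranked the libraries alike. In the deposited TPM values, which divide by transcript length, the share was 4.39 and 3.80% in the controls and 2.59 and 3.48% with VEGF-C. The group difference was -1.06 percentage points on that scale, where both AAV-mVEGF-C libraries lay below both AAV-CTRL libraries. In bulk RNA, fewer cells of a type that is rich in ribosomes and less ribosomal protein mRNA in each cell cannot be told apart. The make-up of the RNA also differed between the libraries. Mitochondrial ribosomal RNA took 8.46 and 7.54% of the reads in the controls and 5.61 and 6.32% with VEGF-C. Its part in the result was not tested.

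**Figure D1:**
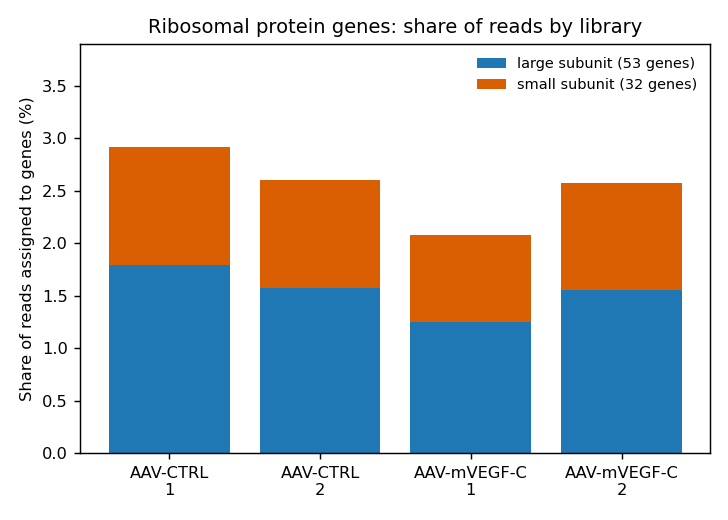
Share of the reads assigned to genes (%, vertical axis) that fell on large and small subunit genes in each of the 4 libraries, stacked from 0. The bar of AAV-mVEGF-C 1 ends at 2.08%, that of AAV-CTRL 1 at 2.92%, and the bars of AAV-CTRL 2 and AAV-mVEGF-C 2 at 2.60 and 2.57%.

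No ribosomal protein gene passed the test between the groups. Of the 85 genes, 81 had enough reads to be tested with edgeR's quasi-likelihood test, and 0 of them had an adjusted p under 0.05, as did 0% of all 19806 genes tested. The adjusted p (edgeR, Benjamini-Hochberg) was 0.999 for every one of the 81. Without adjustment, 1 gene, *Rpl27*, had a p under 0.05 and was lower after AAV-mVEGF-C, a share of 1.23% against 1.18% of all genes. None was higher at that threshold, against 1.46% of all genes. DESeq2, the tool named by the study, called 0 of 81 at an adjusted p under 0.05, against 0.397% of the genes to which it gave an adjusted p, and 7 of 85 were lower at an unadjusted p under 0.05, or 8.24%, against 0.861% of all genes with a p. With edgeR and no filter on low counts, 18 of 85 were lower at an unadjusted p under 0.05, or 21.2%, against 1.65% of all genes, and 0 were higher, against 1.61%. In that fit 0 of the 85 had an adjusted p under 0.05, against 0.659% of all genes.

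The direction of the fitted changes was nevertheless one-sided. The log2 fold change was below 0 for 71 of the 81 tested genes, or 87.7%, against 49.6% of all genes tested. The median log2 fold change was -0.25, against 0.0034 over all genes tested and 0.018 over the 1866 other genes at 100 CPM or more. Large subunit genes had a median of -0.27, with 46 of 49 below 0, and small subunit genes had a median of -0.18, with 25 of 32 below 0. The standard error of a single gene's log2 fold change ran from 0.15 to 0.34, with a median of 0.21, close to the size of the median change. Since genes of 1 library share its preparation, these counts describe the libraries and are not replicates of the treatment. In TPM, 79 of 81 lay below 0 and the median was -0.45, against -0.08 over all genes tested, on the scale of log2(TPM + 1).

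**Figure D2:**
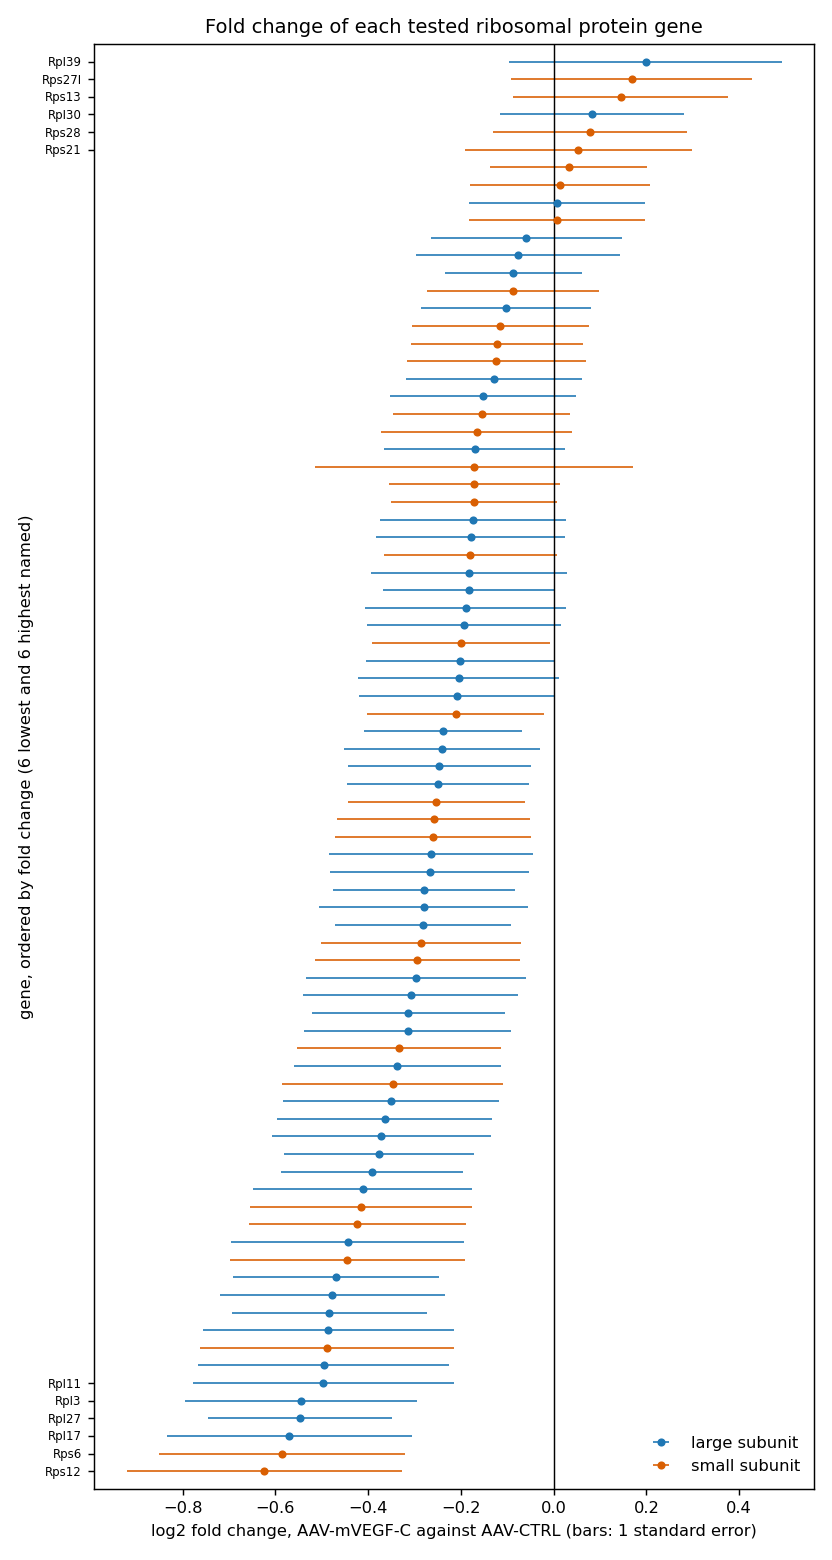
The log2 fold change of AAV-mVEGF-C against AAV-CTRL (horizontal axis) for each of the 81 tested genes, ordered by size, with bars of 1 standard error from edgeR and names for the 6 lowest and 6 highest. Points run from -0.62 (*Rps12*) to 0.20 (*Rpl39*), 71 lie left of 0, and no gene passed the adjusted threshold.

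For most of the genes, the libraries of the groups overlapped. Both AAV-mVEGF-C libraries were below both AAV-CTRL libraries for 15 of the 81 genes in CPM, or 18.5%, against 15.2% of all genes tested, and above them for 1 gene, *Rps27l*, or 1.23%, against 16.8%. The share below was thus near that of all genes, and the share above was far smaller. This count depended on the scale. On plain library sizes, 30 genes lay below, against 16.7% of all genes, and 1 lay above, against 15.4%. In TPM, 64 lay below, against 28.5% of all genes, and 0 lay above, against 8.92%. For 6 genes, *Rpl5*, *Rpl12*, *Rpl27*, *Rpl31*, *Rps6*, and *Rps27l*, the difference between the group means of log2 CPM exceeded the difference between the libraries within either group. The share of all genes tested that meet this was not computed, so that the count says nothing about ribosomal protein genes as a set. *Rpl12* and *Rpl31* fall outside the rule for named genes and were named after their values had been seen.

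By the numbers in the titles, the libraries of experiments 1 and 2 gave opposite signs for most of these genes, and this depended on a matching that is not settled. AAV-mVEGF-C 1 was below AAV-CTRL 1 for 75 of the 81 genes, with a median difference of -0.55 in log2 CPM. AAV-mVEGF-C 2 was above AAV-CTRL 2 for 62 of the 81, with a median difference of 0.08. The partners within a group also differed. AAV-CTRL 1 was above AAV-CTRL 2 for 62 genes, with a median of 0.24, and AAV-mVEGF-C 1 was below AAV-mVEGF-C 2 for 80 of the 81, with a median of -0.39. AAV-mVEGF-C 1 was the lowest library for 74 genes, and AAV-CTRL 1 was the highest for 55. With the other matching, AAV-mVEGF-C 1 was below AAV-CTRL 2 for 80 genes (median -0.31), and AAV-mVEGF-C 2 was below AAV-CTRL 1 for 58 (median -0.21), so that both medians were below 0.

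**Figure D3:**
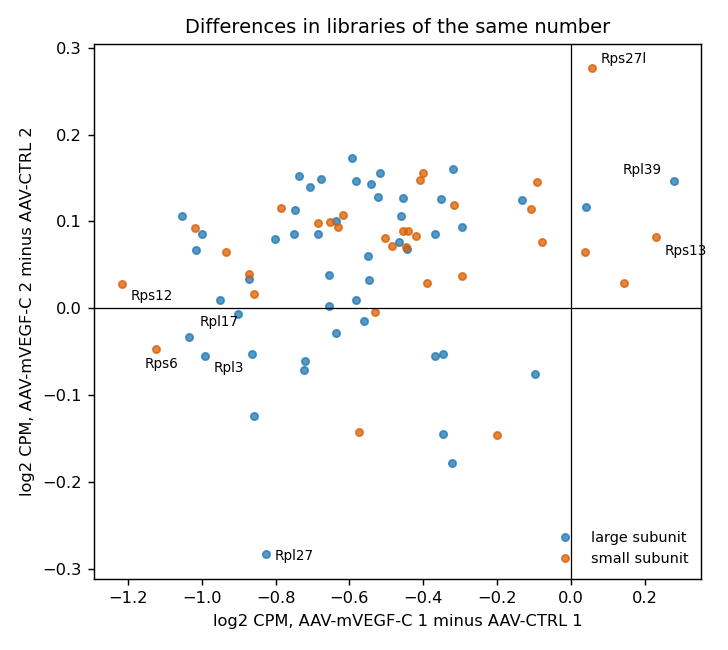
Differences in log2 CPM for the 81 tested genes, AAV-mVEGF-C 1 minus AAV-CTRL 1 on the horizontal axis and AAV-mVEGF-C 2 minus AAV-CTRL 2 on the vertical axis, with 8 genes labeled. Most points lie left of 0 (75 of 81) and above 0 (62 of 81), in the numbering of the titles, which the column names do not share.

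The result rested on single libraries. Leaving out AAV-CTRL 2 gave 12 genes with an adjusted p under 0.05 (edgeR, 0.013 to 0.041), all lower after AAV-mVEGF-C, or 14.5% of the 83 genes then tested, against 3.04% of all genes, while 0 were called higher, against 6.14% of all genes. Those named by the rule were *Rps12*, *Rpl17*, *Rpl11*, *Rpl7l1*, *Rpl3*, *Rps6*, and *Rpl15*. In that fit AAV-CTRL was represented by AAV-CTRL 1 alone, which is assumed to vary like the other libraries. Leaving out AAV-CTRL 1, AAV-mVEGF-C 1, or AAV-mVEGF-C 2 gave 0 calls among these genes and 412, 2, and 65 calls over all genes, against 2058 over all genes without AAV-CTRL 2. The median log2 fold change was -0.12 without AAV-CTRL 1 and -0.07 without AAV-mVEGF-C 1. It was -0.35 without AAV-CTRL 2 and -0.44 without AAV-mVEGF-C 2. Without AAV-mVEGF-C 1, 52 of the 81 genes were below 0. This number was 78 without AAV-CTRL 1, 70 without AAV-CTRL 2, and 80 without AAV-mVEGF-C 2.

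**Figure D4:**
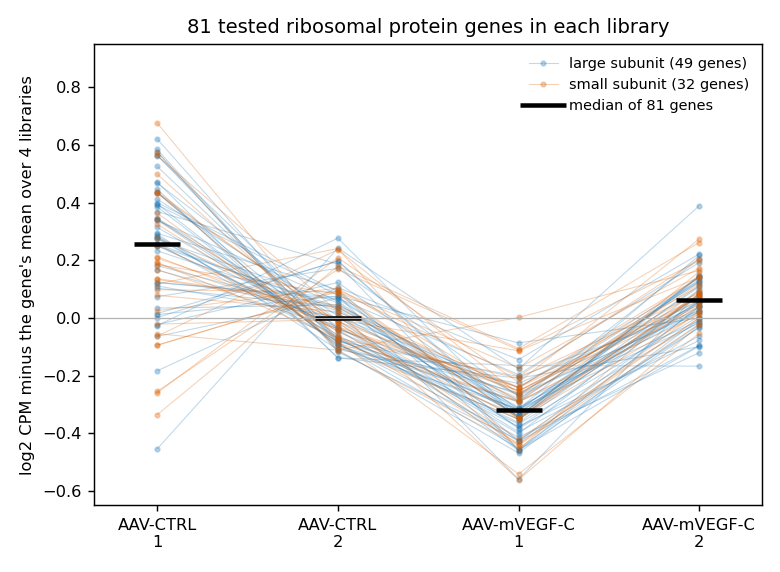
The log2 CPM of each of the 81 tested genes minus its own mean over the 4 libraries (vertical axis), by library, with lines joining the values of a gene and black bars at the medians. The medians are 0.26 and -0.0016 in the controls and -0.32 and 0.061 with VEGF-C.

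The genes with the lowest fold changes came from both subunits. *Rps12*, a protein of the head of the small subunit (ENSMUSG00000061983.7; GRCm38 chromosome 10, 23785183 to 23787275, minus strand), was at 251 and 149 CPM in the controls and at 108 and 151 CPM with VEGF-C. Its log2 fold change was -0.62 ± 0.30 (SE; adjusted p = 0.999, edgeR), and the groups overlapped. *Rps6*, the ribosomal protein that is phosphorylated by the S6 kinases downstream of mTOR (ENSMUSG00000028495.14; chromosome 4, 86854660 to 86857412, minus strand), was at 460 and 316 CPM in the controls and at 211 and 306 CPM with VEGF-C. The groups did not overlap, but AAV-CTRL 2 and AAV-mVEGF-C 2 were close, and the log2 fold change was -0.59 ± 0.27 (SE; adjusted p = 0.999). *Rpl17*, a protein at the mouth of the tunnel through which the new chain leaves, was at 339 and 207 CPM in the controls and at 165 and 203 CPM with VEGF-C, a log2 fold change of -0.57 ± 0.26 (SE). *Rpl3*, which lies near the site where peptide bonds form, was at 888 and 584 CPM in the controls and at 447 and 563 CPM with VEGF-C, a log2 fold change of -0.54 ± 0.25 (SE). *Rps12*, *Rps6*, *Rpl17*, and *Rpl3* had the same shape, with AAV-CTRL 1 high, AAV-mVEGF-C 1 low, and the second libraries of both groups together. Without AAV-CTRL 1 their log2 fold changes were -0.21, -0.31, -0.19, and -0.23, and without AAV-mVEGF-C 1 they were -0.39, -0.34, -0.42, and -0.38.

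*Rpl27*, a large subunit protein (ENSMUSG00000063316.13; chromosome 11, 101442298 to 101445529, plus strand), had the smallest unadjusted p of the group. It was at 44.6 and 39.3 CPM in the controls and at 25.2 and 32.3 CPM with VEGF-C, with means of 42.0 ± 3.76 and 28.7 ± 5.05 CPM (SD, n = 2) and a log2 fold change of -0.55 ± 0.20 (SE; adjusted p = 0.999). Unlike most of the genes, it was lower in both libraries with VEGF-C than in the control of the same number, with differences of -0.83 and -0.28 in log2 CPM. *Rpl5* and *Rpl11* encode proteins that bind the smallest ribosomal RNA and, when free of ribosomes, the p53 regulator MDM2. *Rpl5* was at 220 and 177 CPM in the controls and at 121 and 163 CPM with VEGF-C (log2 fold change -0.48 ± 0.21, SE), with no overlap. *Rpl11* was at 306 and 189 CPM in the controls and at 147 and 203 CPM with VEGF-C (log2 fold change -0.50 ± 0.28, SE), and its groups overlapped. *Rpl15*, a core protein of the large subunit, was at 241 and 173 CPM against 132 and 167 CPM (log2 fold change -0.47 ± 0.22, SE), with no overlap. Without AAV-CTRL 1 the log2 fold change was -0.12 for *Rpl11* and -0.23 for *Rpl15*, and without AAV-mVEGF-C 1 it was -0.28 for *Rpl5* and *Rpl11* and -0.30 for *Rpl15*.

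Fold changes above 0 were found for 10 of the 81 genes, and none of them passed the test. *Rpl39*, a very small protein that lines the exit tunnel (ENSMUSG00000079641.3; chromosome X, 37082520 to 37085402, minus strand), was at 80.9 and 131 CPM in the controls and at 98.1 and 145 CPM with VEGF-C. Its log2 fold change was 0.20 ± 0.29 (SE; adjusted p = 0.999, edgeR), and the first library of each group was the lower one. *Rps13* was at 58.7 and 83.9 CPM in the controls and at 68.8 and 88.8 CPM with VEGF-C (log2 fold change 0.14 ± 0.23, SE). These genes were low in AAV-CTRL 1, where most ribosomal protein genes were high. *Rpl30* (184 and 225 against 189 and 244 CPM), *Rps28* (148 and 198 against 163 and 202 CPM), and *Rps21* (189 and 261 against 194 and 273 CPM), all small proteins, repeated that shape, with log2 fold changes of 0.08, 0.08, and 0.05. All of *Rpl39*, *Rps13*, *Rpl30*, *Rps28*, and *Rps21* had fold changes below 0 once AAV-CTRL 1 was left out, and all but *Rpl39* were below 0 in TPM. Between the AAV-CTRL libraries, 40 genes were over 0.25 higher in AAV-CTRL 1 and 7 were over 0.25 higher in AAV-CTRL 2 in log2 CPM, the latter being these 5, *Rpl28*, and *Rps4l*. *Rpl28* falls outside the rule for named genes.

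The proteins of the stalk, which recruits the elongation factors to the large subunit, had fold changes closer to 0. *Rplp0*, its base, was at 1256 and 1118 CPM in the controls and at 916 and 1221 CPM with VEGF-C (log2 fold change -0.15 ± 0.20, SE). *Rplp1* was at 616 and 682 CPM against 503 and 728 CPM (log2 fold change -0.08 ± 0.22, SE). *Rplp2* was at 601 and 575 CPM against 466 and 610 CPM (log2 fold change -0.13 ± 0.19, SE). AAV-mVEGF-C 1 was the lowest library for each of these genes, both controls lay between the VEGF-C values for *Rplp1* and *Rplp2*, and without AAV-mVEGF-C 1 the log2 fold changes were 0.050, 0.17, and 0.061. *Rpsa*, which encodes a small subunit protein also known as the laminin receptor (ENSMUSG00000032518.6; chromosome 9, 120127689 to 120132369, plus strand), was at 1882 and 1437 CPM in the controls and at 1169 and 1538 CPM with VEGF-C. Its log2 fold change was -0.29 ± 0.22 (SE; adjusted p = 0.999), with overlapping groups, and it was -0.10 without AAV-CTRL 1 and -0.10 without AAV-mVEGF-C 1.

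Levels of the genes, compared per transcript length in TPM, spanned a wide range. The mean over libraries ran from 4.37 to 1411 TPM with a median of 354 TPM. Among the highest were *Rplp1* (1411 TPM), *Rpl26* (1372 TPM), *Rplp2* (1326 TPM), and *Rpl13a* (1244 TPM), the last of which also takes part in interferon-induced silencing of translation. Their order differed between libraries, since *Rpl26* was at 1877 TPM and *Rplp1* at 1503 TPM in AAV-CTRL 1, whereas *Rplp1* led in the other libraries with 1628, 1009, and 1505 TPM. The lowest were *Rps4l* (4.37 TPM), *Rpl7l1* (17.6 TPM), *Rps27l* (19.5 TPM), *Rpl22l1* (47.8 TPM), and *Rpl27* (57.4 TPM). All but *Rpl27* are paralogs of a standard ribosomal protein gene. Across the 81 genes, the Spearman correlation of TPM between libraries was 0.996 to 0.997 among AAV-CTRL 2 and both AAV-mVEGF-C libraries, and 0.956 to 0.958 between AAV-CTRL 1 and each of them, as a description across genes.

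The tested paralogs were below their parents per transcript length. The mean was 19.5 TPM for *Rps27l* against 617 TPM for *Rps27*, 47.8 TPM for *Rpl22l1* against 682 TPM for *Rpl22*, 17.6 TPM for *Rpl7l1* against 534 TPM for *Rpl7*, and 4.37 TPM for *Rps4l* against 451 TPM for *Rps4x*. *Rpl6l*, annotated as a processed pseudogene and outside the rule for named genes, was nearer to its parent, at 83.7 TPM against 342 TPM for *Rpl6*. *Rps27l*, a paralog of *Rps27* that is induced by p53, was at 8.06 and 7.75 CPM in the controls and at 8.38 and 9.39 CPM with VEGF-C, the one gene higher without overlap (log2 fold change 0.17 ± 0.26, SE), and this sign turned in TPM. *Rps27* itself was at 156 and 146 CPM against 108 and 145 CPM (log2 fold change -0.25 ± 0.19, SE). *Rpl22l1* was between 24.5 and 35 CPM in all libraries (log2 fold change -0.19 ± 0.22, SE), and its parent *Rpl22*, which is required in the development of αβ T cells, was at 339 and 267 CPM against 224 and 301 CPM (log2 fold change -0.20 ± 0.22, SE). Both genes were highest in AAV-CTRL 1 and lowest in AAV-mVEGF-C 1. *Rpl7l1* was at 62.4 and 40.9 CPM in the controls and at 40.2 and 40.1 CPM with VEGF-C (log2 fold change -0.36 ± 0.23, SE), so that only AAV-CTRL 1 stood apart, and *Rpl7* was at 838 and 723 CPM against 569 and 715 CPM (log2 fold change -0.28 ± 0.19, SE). *Rps4l*, annotated as a pseudogene, was at 4.65 and 5.72 CPM against 4.04 and 5.17 CPM, and *Rps4x* was at 669 and 489 CPM against 369 and 494 CPM (log2 fold change -0.42 ± 0.23, SE). Without AAV-CTRL 1 the log2 fold change was -0.045 for *Rpl7l1*, -0.19 for *Rpl7*, and -0.19 for *Rps4x*. Without AAV-mVEGF-C 1 it was -0.048 for *Rps27*, -0.12 for *Rpl7*, -0.22 for *Rps4x*, and 0.26 for *Rps27l*, which was at 0.091 without AAV-mVEGF-C 2.

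Of the 85 genes, 4, *Rpl3l*, *Rpl10l*, *Rpl39l*, and *Rpl32l*, had too few reads to be tested. *Rpl3l*, known from heart and skeletal muscle, had 0, 4, 13, and 5 reads in the order of the libraries. *Rpl10l*, known from testis, had 0, 3, 2, and 0 reads, and *Rpl39l*, also known from testis, had 0, 1, 2, and 4 reads. These genes were thus at the limit of detection, where a count of 0 allows up to 3 reads. *Rpl32l*, a processed pseudogene in the annotation, had 5.11 to 14.6 estimated reads per library. Their parents were well expressed, with *Rpl10* at 138 and 148 CPM in the controls and at 108 and 133 CPM with VEGF-C (log2 fold change -0.24 ± 0.17, SE; no overlap). This fold change was -0.088 without AAV-mVEGF-C 1.

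Reads of these genes can also match related sequences, and their values are uncertain to that extent. Ribosomal protein mRNAs have given rise to many processed pseudogenes, and the deposited table lists 319 of them by names containing -ps. These took 0.535 and 0.488% of the reads in the controls and 0.444 and 0.515% with VEGF-C, ranking AAV-CTRL 1 highest and AAV-mVEGF-C 1 lowest as the genes themselves did. Estimated reads were not whole numbers for 78 of the 85 genes and for 87.9% of their values, against 8.18% of all values in the table. How reads were divided between genes and pseudogenes is not given in the sources used here.

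The start regions of 13 of the tested genes carry a pyrimidine run of the TOP kind in the reference. In the RefSeq table of promoters (GRCm38.p6), 63 of the 85 genes had an entry, with 75 starts. A start was counted when its first transcribed base is C and at least the next 4 bases are each C or T, on the strand of the gene. This held for 14 of the 75 starts, or 18.7%, against 2.51% of the 32851 starts of all genes in the table, and each was at a different gene, one of them the untested *Rpl32l*. The following windows of 30 bases, centered on the annotated start, show genes from the low end of the fold changes (*Rps6*, *Rpl15*), the high end (*Rps21*), the stalk (*Rplp2*), and a gene with a paralog (*Rps27*). Capitals mark the run from the first transcribed base onward.
Rps6, chr4:86857353-86857382, minus strand: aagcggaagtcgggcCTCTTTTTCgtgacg
Rpl15, chr14:18270972-18271001, minus strand: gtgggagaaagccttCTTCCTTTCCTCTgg
Rps27, chr3:90213634-90213663, minus strand: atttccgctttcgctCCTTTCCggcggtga
Rplp2, chr7:141447636-141447665, plus strand: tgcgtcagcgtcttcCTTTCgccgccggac
Rps21, chr2:180257364-180257393, plus strand: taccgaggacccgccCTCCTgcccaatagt
The median log2 fold change was -0.21 for the 13 tested genes with such a start, and the 46 tested genes with an entry but no such start had a median of -0.25. The runs shown were 13 bases long in *Rpl15*, 9 in *Rps6*, 7 in *Rps27*, and 5 in *Rplp2* and *Rps21*. A start that differs from the annotated base by a few positions would not be counted, so that no match says little about a gene.

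Of 5 genes of ribosomal proteins that the name rule leaves out, 4 were highest in AAV-CTRL 1 and lowest in AAV-mVEGF-C 1. *Rps3a1* was at 880 and 641 CPM in the controls and at 535 and 669 CPM with VEGF-C (log2 fold change -0.34 ± 0.22, SE). *Fau*, which encodes a ribosomal protein fused to a ubiquitin-like chain, had a log2 fold change of -0.42. *Rack1*, a scaffold on the small subunit, was at 642 and 588 CPM against 492 and 628 CPM (log2 fold change -0.13). *Rpl36al* had a log2 fold change of -0.41. *Rps27rt* had another order, at 66.5 and 72.2 CPM against 73.0 and 80.0 CPM, higher without overlap (log2 fold change 0.14), so that 4 of these 5 genes were below 0 and 0 of them passed the adjusted threshold.

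Genes that build or use ribosomes were also mostly below 0, and none of them passed the adjusted threshold. Of 64 ribosome assembly factors, 51 had fold changes below 0, with a median log2 fold change of -0.13, and 21 were lower and 2 higher without overlap, where 15.2% and 16.8% of all genes tested were lower and higher. *Ftsj3*, an RNA methyltransferase of ribosome assembly, was at 54.7 and 42.2 CPM in the controls and at 33.6 and 35.8 CPM with VEGF-C (log2 fold change -0.48 ± 0.19, SE; adjusted p = 0.999), so that both libraries with VEGF-C were below both controls. *Bysl*, a factor of small subunit maturation, went the other way, at 13.6 and 20.2 CPM against 21.6 and 25.3 CPM (log2 fold change 0.47 ± 0.25, SE). Of 42 translation factors, 35 were below 0, with a median of -0.21, and 11 were lower and 2 higher without overlap. *Eef1g*, a subunit of the factor that reloads elongation factor 1A, was at 275 and 194 CPM against 146 and 189 CPM (log2 fold change -0.48 ± 0.23, SE). Of the 35 listed genes of RNA polymerases I and III and of the control of ribosome synthesis that were in the table, 22 were below 0, with a median of -0.11. Proteins of the mitochondrial ribosome, taken by symbol as a list added later, had 66 of 78 genes below 0, a median of -0.25, and 30 lower and 0 higher without overlap. Between the first libraries of the groups the median difference was -0.37 for this list and -0.46 for the translation factors, and between the second libraries it was -0.06 and 0.04, on the scale of log2(CPM + 1).

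Small nucleolar RNAs (snoRNAs) that lie inside ribosomal protein genes had fold changes above 0, whereas most of their hosts were below 0. Many introns of these genes release such RNAs, which guide the chemical modification of ribosomal RNA, so that a single transcript can supply both. On the same strand, 56 annotated snoRNA genes lay within 29 of the ribosomal protein genes. Their summed level was 330 and 550 CPM in the controls, and 912 and 672 CPM with VEGF-C. Of the 54 with any read, 50 were lowest in AAV-CTRL 1, where ties at 0 reads with another library are counted. In AAV-mVEGF-C 1, 49 of the 54 were highest. For 42 of them, both AAV-mVEGF-C libraries were above both AAV-CTRL libraries, a pattern seen for 16.8% of all genes tested. All 46 that were tested had log2 fold changes above 0, with a median of 1.36, but 0 passed the adjusted threshold (edgeR) and 12 had an unadjusted p under 0.05, where 1.46% of all genes tested were higher at that threshold. The 29 hosts had a median of -0.28, with 24 below 0 and 5 above it, and the 52 tested ribosomal protein genes with no annotated snoRNA had a median of -0.21. *Snord15b*, inside *Rps3* (chromosome 7, 99479563 to 99479707, minus strand), was at 147 and 248 CPM in the controls and at 368 and 303 CPM with VEGF-C (log2 fold change 0.76 ± 0.28, SE; adjusted p = 0.999). *Snord15b* was chosen for its level, the highest of the 56, and *Rps3* as its host, outside the rule for named genes. *Rps3* itself, one of the 5 hosts above 0, was at 731 and 739 CPM against 685 and 817 CPM (log2 fold change 0.03 ± 0.17, SE). The pattern was not particular to these hosts, since 149 of the other 151 snoRNAs tested were also above 0, with a median of 1.37. The summed snoRNAs and the share of small nuclear RNAs given above were both lowest in AAV-CTRL 1 and highest in AAV-mVEGF-C 1, where the ribosomal protein genes were highest and lowest, and their part in the result was not tested.

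**Figure D5:**
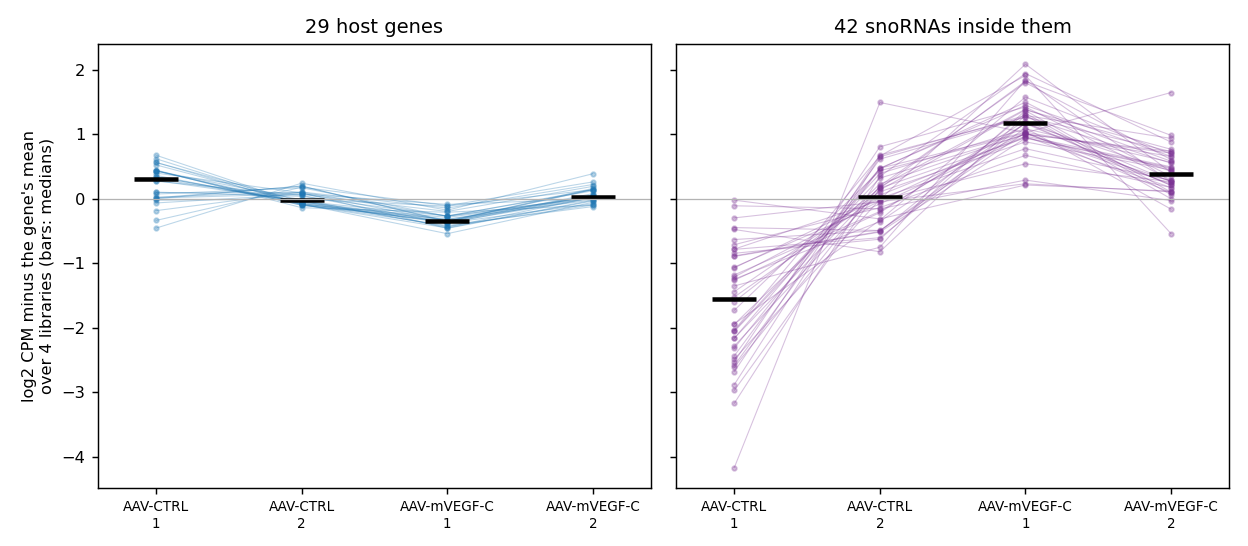
The log2 CPM of each gene minus its own mean over the 4 libraries (vertical axis), for the 29 host genes (left) and for the 42 snoRNAs inside them that had reads in every library (right), with lines joining the values of a gene and black bars at the medians. The hosts are highest in AAV-CTRL 1 and lowest in AAV-mVEGF-C 1 by their medians, and the snoRNAs are the reverse.

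Markers of several cell types also differed between the libraries. The 12 neutrophil markers summed to 28508 and 13247 CPM in the controls and to 16925 and 19042 CPM with VEGF-C, with log2 fold changes below 0 for 4 of the 12, so that AAV-CTRL 1 held the most RNA of these genes. The 8 B cell markers summed to 338 and 776 CPM against 359 and 391 CPM, and all 8 fold changes were below 0. The 6 plasma cell markers summed to 435 and 445 CPM against 901 and 904 CPM, and all 6 were above 0. The 8 T cell markers summed to 453 and 441 CPM against 557 and 516 CPM, all above 0. The 4 mast cell markers summed to 1663 and 1149 CPM against 936 and 1001 CPM, and the 8 monocyte and macrophage markers to 2196 and 2761 CPM against 1862 and 2500 CPM, with all 4 and 7 of 8 below 0. Among cells outside the sort, the 5 erythroid markers summed to 118 and 148 CPM in the controls against 26.5 and 48.8 CPM with VEGF-C, and the 6 fibroblast markers to 652 and 1041 CPM against 353 and 549 CPM, with all of both lists below 0. The 5 endothelial markers summed to 67.8 and 80.1 CPM against 59.0 and 60.3 CPM, with 4 of 5 below 0. The 4 NK cell markers summed to 67.7 and 68.7 CPM against 54.5 and 64.9 CPM, with 2 of 4 below 0. The 5 dendritic cell markers summed to 218 and 246 CPM against 253 and 256 CPM, with 1 of 5 below 0. Sums did not overlap between the groups for plasma cell, T cell, mast cell, erythroid, fibroblast, endothelial, NK cell, and dendritic cell markers. They overlapped for neutrophil, B cell, and monocyte and macrophage markers. Gene by gene, all 6 plasma cell markers, 4 T cell, 3 dendritic cell, 2 neutrophil, and 1 endothelial marker were higher without overlap, against 16.8% of all genes tested. The markers lower without overlap were 5 erythroid, 5 fibroblast, 3 mast cell, 3 endothelial, 2 NK cell, 1 B cell, and 1 monocyte and macrophage marker, against 15.2% of all genes tested. None of the 76 marker genes, the 5 leukocyte markers included, lacked reads in any library, and none had an adjusted p under 0.05. The summed mast cell markers were highest in AAV-CTRL 1 and lowest in AAV-mVEGF-C 1, as the ribosomal protein genes were, and the sums of neutrophil, B cell, and T cell markers were not. The part of these cells in the result was not tested.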

How the data were processed

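CD45+ dural cells were studied in 4 libraries, 2 per group, made from total RNA with a strand-specific, PCR-amplified kit for very small inputs. The authors deposited estimated counts of reads per gene, which need not be whole numbers and were not normalized. The authors also deposited TPM values of the same genes, scaled for transcript length to 1000000 per library. The submitters' processing notes name FastQC, Trimmomatic, DRAGEN, Picard, and the build mm10, and how reads with several matches were assigned, and on which strand, is not given in the sources used here. The study's methods name DESeq2. There were 0 columns of other samples.

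Estimated counts were rounded and fitted for all genes with edgeR 4.0.16 in R 4.3.3 (TMM, filterByExpr, glmQLFit, glmQLFTest, all 4 libraries, no covariate), with Benjamini-Hochberg adjustment over 19806 genes and a threshold of 0.05. The standard error is the size of the log2 fold change divided by the square root of F. CPM are TMM-scaled. P-values measure only the spread between these pools. Alternatives were DESeq2 1.42.0, limma 3.58.1 (voom, and log2 TPM with pseudocounts of 1 or 0.1), a replicate block, other scalings and filters, robust fitting, and each library left out. A crossed block was added after the data had been seen. Tables were summarized with Python 3.11.15, pandas 2.3.3, and scipy 1.17.1. Gene positions were read from GENCODE M21 (GRCm38), which holds 54349 of the 55401 identifiers.

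The genes and all lists were chosen with earlier results of these data known. Genes named were the 5 highest and 5 lowest by mean TPM, the 6 highest and 6 lowest fold changes, the 6 smallest p, the stalk genes, *Rpsa*, and the paralogs with their parents, and from other lists at most 4 with the most extreme fold changes, with *Rps3a1*, *Snord15b*, and *Rps3* added after their values had been seen. Some genes that these rules name are not reported here.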

Additional observations from a re-analysis of the deposited data

How the results depend on the processing

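With all libraries kept, the number of ribosomal protein genes called was 0 under DESeq2, limma-voom, the replicate block, the crossed replicate block, the other scalings and filters, robust fitting, and TPM, and their median log2 fold change ran from -0.46 (TPM, pseudocount 0.1) to -0.23 (at least 10 reads in every library). With the replicate block the median was -0.25, with 0 genes called and 11 called over all genes. With the numbers crossed it was also -0.25, with 0 called and 54 over all genes. The experiment numbers come from the labels alone, and they were not taken to pair the libraries. Deviations in same-numbered libraries correlated at -0.13 over all genes tested and at 0.19 over the ribosomal protein genes. With 2 libraries per group, the crossed numbers give the same values with the sign turned, so that these correlations cannot settle the matching. With no filter on low counts, 18 of 85 ribosomal protein genes were lower at an unadjusted p under 0.05, as were 672 of all 40674 genes, and at an adjusted p 0 of the 85 and 268 of all genes were called.

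As a share of summed TPM, the group difference was -1.06 percentage points, against -0.43 by reads. Genes without overlap numbered 64 lower and 0 higher in TPM, a count of ranks that a pseudocount cannot change. On plain library sizes they numbered 30 lower and 1 higher, in place of 15 lower and 1 higher. The sign turned in TPM for 5 named genes, to -0.20 for *Rps21* and -0.12 for *Rps13* with both pseudocounts, -0.033 (pseudocount 1) and -0.035 (pseudocount 0.1) for *Rps27l*, -0.046 for *Rpl30* with both, and -0.18 (pseudocount 1) and -0.19 (pseudocount 0.1) for *Rps28*. The cause was not tested. The other 309 of 319 values of the 29 named genes kept their sign and their side of the threshold.

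With each library left out in turn, the number of ribosomal protein genes called ran from 0 to 12, with 2 to 2058 called over all genes (2058 in the fit with 12), the median log2 fold change from -0.44 to -0.07, and the difference in share from -0.68 to -0.18 percentage points. The log2 fold change ran from -0.21 to 0.32 for *Rps21*, -0.11 to 0.43 for *Rps13*, -0.10 to 0.26 for *Rpl30*, -0.13 to 0.32 for *Rps28*, and -0.12 to 0.60 for *Rpl39*. It ran from -0.37 to 0.0086 for *Rpl22l1*, -0.43 to 0.000296 for *Rpl22*, -0.37 to 0.050 for *Rplp0*, -0.36 to 0.17 for *Rplp1*, -0.33 to 0.061 for *Rplp2*, and -0.35 to 0.0059 for *Rps4l*. Of the tested genes, 69 were at 100 CPM or more, and the fit of all libraries had 2 residual degrees of freedom.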
